A study of Mus musculus with 35 samples.

Results

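GATA factors are zinc-finger transcription factors that bind the core sequence GATA, and the FOG proteins are multi-zinc-finger cofactors that bind GATA factors rather than DNA. The 8 genes described here are the 6 GATA genes of the mouse (Gata1 to Gata6) and the 2 FOG genes, Zfpm1 (FOG1) and Zfpm2 (FOG2), chosen by gene name. All 8 were among the 44853 gene symbols of the induction table, and 5 of them (Gata1, Gata2, Gata4, Gata6 and Zfpm1) were among the 6275 genes of the Oct4 knockdown table.

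The induction series followed KH2 embryonic stem (ES) cells (C57BL/6 x 129/Sv) carrying a doxycycline (Dox) inducible gata6 cassette, made as clones with a GATA6-3×HA open reading frame. There were 3 libraries from untreated cells (0 h) and 3 from each of 6 times in 1 µg/mL Dox, namely 16, 24, 48, 72, 96 and 168 h. They were set beside 2 libraries of untreated wild-type X10 XEN cells (CD1), an extra-embryonic endoderm line, so cell line and strain cannot be told apart from cell state in comparisons with XEN. In the knockdown series, 1 Gata6-inducible clone was nucleofected with non-targeting (siCTL) or Oct4-targeting (siOct4) siRNA pools, plated at once in 1 µg/mL Dox and harvested at 48 h, 6 libraries each. All ES cells were grown with serum and LIF on mouse embryonic fibroblast feeders, and XEN cells without LIF; feeders were adsorbed on plastic before lysis.

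GATA4, GATA5 and GATA6 are the members known from endoderm and heart, and GATA6 and GATA4 are defining regulators of primitive endoderm (PrE), the extra-embryonic lineage set apart from the epiblast in the blastocyst. GATA1, GATA2 and GATA3 are best known from blood, and GATA2 and GATA3 also from trophoblast. FOG1 is the partner of GATA1 in erythroid cells and megakaryocytes, and FOG2 the partner of GATA4 in heart and gonad; both can recruit the NuRD and CtBP corepressors.

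All values are TPM, transcript abundances scaled for transcript length and library total, which allow levels of different genes to be compared within a table. Differences were tested on log2(TPM + 1) with limma, a linear model fitted across all genes, and Benjamini-Hochberg adjustment over all genes tested. A gene was called in the induction series at adjusted p under 0.05 and a log2 difference beyond 1, and in the knockdown series beyond 0.5. Testing was limited to genes whose mean reached 1 TPM in some group. Of the 8 members, 5 passed that filter (Gata1, Gata2, Gata4, Gata6 and Zfpm1), and Gata3, Gata5 and Zfpm2 did not. Depth is unknown, since TPM values keep none, so precision is given by the spread between libraries alone.

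Defining markers were read first as a check of the labels. The 8 ES cell markers summed to between 9485 and 9723 TPM at 0 h and between 12.8 and 15.7 TPM in XEN cells, and the 10 PrE and XEN markers to between 147.1 and 243.3 TPM at 0 h and between 15105 and 15219 TPM in XEN cells. Pou5f1 (Oct4), the siRNA target, lay between 781.8 and 1194 TPM in siCTL and between 281.6 and 386.6 TPM in siOct4 libraries, without overlap. The 9 feeder fibroblast markers summed to between 38.3 and 295 TPM over the induction libraries, highest in 168 h replicate 3. In bulk RNA, fewer cells of a type and less RNA per cell cannot be told apart.

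Upstream sequences are shown for the members whose levels changed and for which a RefSeq window (GRCm38.p6) was at hand: Gata1, Gata2 (its first listed start) and Zfpm1. Each run holds the 250 bases before the start, read on the strand of the gene from 5′ to 3′, in lower case with any GATA core (GATA or its reverse complement TATC) in capitals. The Gata1 window is chrX:7967911-7968160 on the minus strand and lies inside the longer GENCODE M21 gene span. The Gata2 window is chr6:88193641-88193890 and the Zfpm1 window chr8:122281891-122282140, both on the plus strand and ending just before the first base of the GENCODE gene.
Gata1: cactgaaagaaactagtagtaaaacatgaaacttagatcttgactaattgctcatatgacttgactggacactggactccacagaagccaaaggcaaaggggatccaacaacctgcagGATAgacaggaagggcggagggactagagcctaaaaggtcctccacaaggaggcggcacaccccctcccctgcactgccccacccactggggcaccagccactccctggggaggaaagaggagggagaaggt
Gata2: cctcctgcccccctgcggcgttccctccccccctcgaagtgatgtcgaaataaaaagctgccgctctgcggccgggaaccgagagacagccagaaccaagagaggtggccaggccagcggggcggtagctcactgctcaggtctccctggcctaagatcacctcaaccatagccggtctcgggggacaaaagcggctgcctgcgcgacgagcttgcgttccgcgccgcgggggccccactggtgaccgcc
Zfpm1: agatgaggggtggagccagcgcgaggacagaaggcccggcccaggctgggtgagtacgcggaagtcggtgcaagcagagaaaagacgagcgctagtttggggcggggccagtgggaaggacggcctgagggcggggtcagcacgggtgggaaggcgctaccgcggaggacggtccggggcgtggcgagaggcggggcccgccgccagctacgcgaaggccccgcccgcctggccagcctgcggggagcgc
The Gata1 window held 1 GATA core, whose first base lies 132 bases before the start, and the other two held none; over all 32851 RefSeq windows of the same length, 53.6% held at least 1. None of the 3 windows held the longer hexamer AGATAA or the hexamer TGATAA, nor the hexamer AGATAG or the hexamer TGATAG, on either strand, which contain the core and occurred in 26.5% of all windows. The Gata1 window had 54% G and C and 2 CpG dinucleotides, against 67.2% and 22 for Gata2, 73.2% and 28 for Zfpm1, and medians of 52.4% and 6 over all windows. A match or its absence in these windows is a description of the letters alone.

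Before Dox, the GATA pool of ES cells was small. Gata2 had the highest mean level of the family at 0 h, 3.75 ± 1.58 TPM (SD, n = 3), followed by Zfpm1 at 2.99 ± 0.541 TPM, and the libraries of these 2 genes overlapped. Next came Gata1, Gata4, Gata3 and Gata6, at 0.798, 0.663, 0.308 and 0.264 TPM, each overlapping its neighbour in that order. Zfpm2 at 0.149 TPM and Gata5 at 0.00339 TPM were below all of these. Low values in the table are whole steps of about 0.0101 TPM, so Gata5 was at 1 step in 1 library and listed at 0 in the other two.

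After 16 h of Dox, 4 of the 5 tested members were called, all higher, where 2.77% of the 15057 genes tested were called. Gata6, Gata4, Zfpm1 and Gata1 rose, and Gata2 did not pass the test. At 24 h the same 4 members were called (5.68% of all genes), at 48 h Gata6, Gata4 and Zfpm1 (16.4%), at 72 h these and Gata2 (26.2%), and at 96 h and 168 h Gata6, Gata4 and Zfpm1 again (29.5% and 39.1%). These comparisons share the 0 h libraries.

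Gata6 (mm10, chromosome 18, 11052064 to 11085635, plus strand), the induced gene, stood at 0.193, 0.223 and 0.375 TPM at 0 h and at 129.3, 133.5 and 138.5 TPM at 16 h. All 16 h libraries lay above all 0 h libraries, and the log2 difference was 6.74 ± 0.09 (SE; limma adjusted p = 1.55e-20). The gene-level value counts transgene and endogenous transcripts together, so neither is known alone. The level stayed close to that at 24 h, at 143.3, 144.7 and 122.2 TPM, where the difference from 16 h was 0.03 with a 95% interval from -0.15 to 0.21. Means then went from 163.8 TPM at 48 h to 194.9, 238.7 and 344.4 TPM at 72, 96 and 168 h. Each of those steps had an adjusted p under 0.05 in limma, from 8.5e-05 to 0.0322, with log2 differences between 0.25 and 0.52, short of the fold required for a call.

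Gata4 (chromosome 14, 63198922 to 63271692, minus strand), the partner factor of GATA6 in PrE, was at 0.599, 0.954 and 0.436 TPM at 0 h and at 62.1, 62.4 and 65.7 TPM at 16 h. The log2 difference was 5.29 ± 0.12 (SE; limma adjusted p = 2.65e-16), and no library overlapped. Its level went on to 130.4, 135.5 and 92.2 TPM at 24 h and 247.9, 251.3 and 225.8 TPM at 48 h. The step from 24 to 48 h, 1.03 ± 0.12 on the log2 scale (SE; limma adjusted p = 2.65e-06), was the only call of a member between consecutive times, where 5.56% of genes were called. Without 24 h replicate 3, its lowest library, that step was 0.86 and below the fold limit, and the step from 16 to 24 h became 1.06 in place of 0.88 and was called. Means at 72, 96 and 168 h were 326.8, 333.2 and 413.3 TPM.

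**Figure D1:**
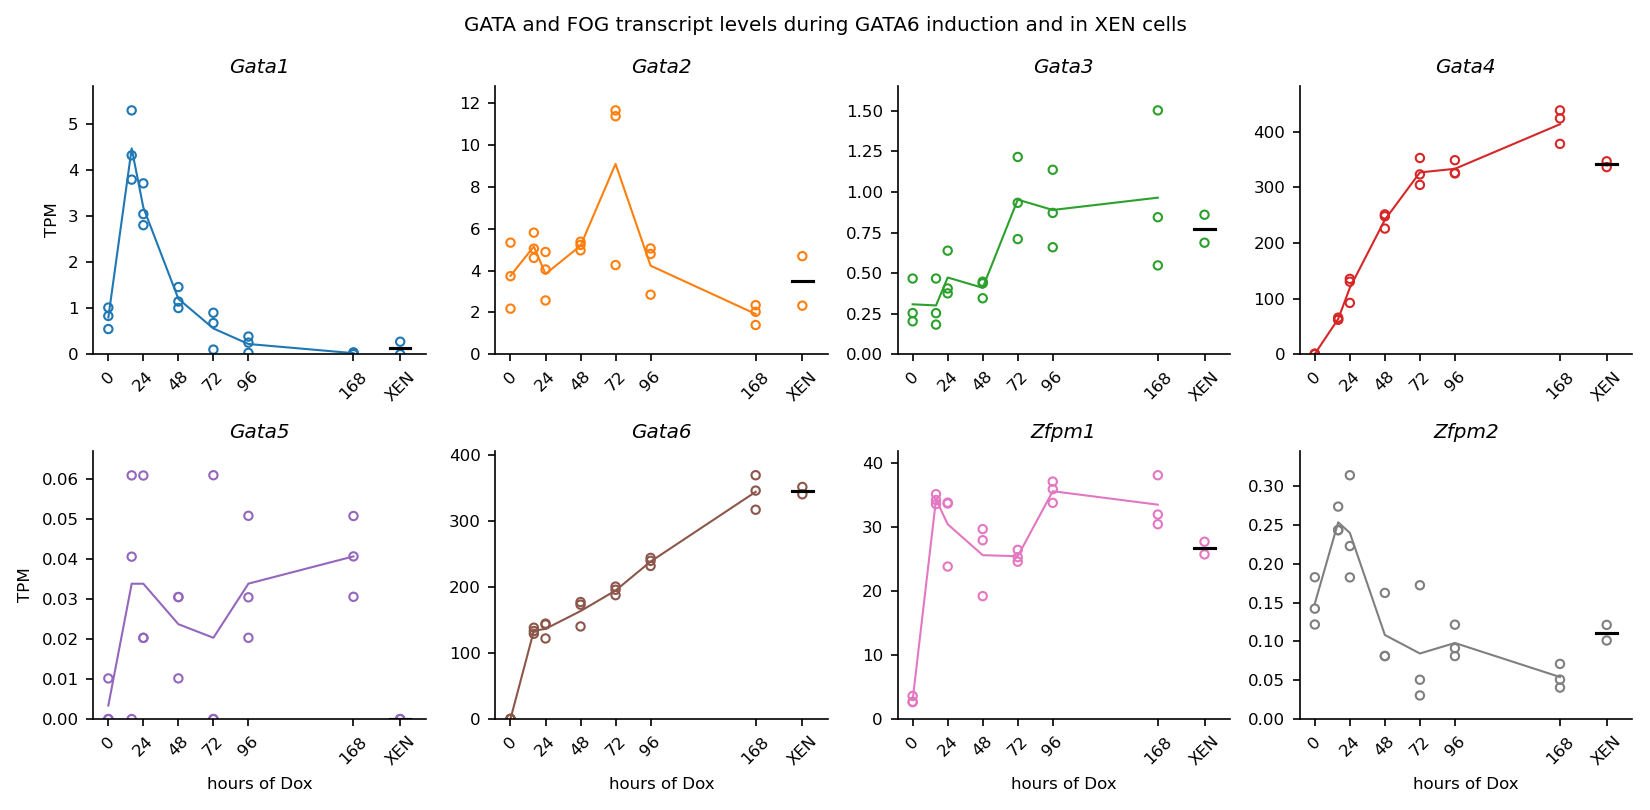
Levels of the 8 GATA and FOG genes in TPM (linear axis, own scale for each gene) against hours of Dox, with XEN cells at the right. Circles are libraries (n = 3, XEN n = 2), lines join the means and the short bar is the XEN mean. Gata6 and Gata4 climbed to over 300 TPM. Zfpm1 had risen by 16 h, and its later means lay between 25.4 and 35.6 TPM. Gata1 peaked at 16 h, and no library exceeded 1.5 TPM for Gata3, 0.0609 TPM for Gata5 or 0.314 TPM for Zfpm2.

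The ratio of Gata4 to Gata6 TPM turned over between 24 and 48 h. At 0 h, where both genes were under 1 TPM, it was 3.11, 4.27 and 1.16. It was 0.481, 0.467 and 0.475 in the 16 h libraries, and between 0.755 and 0.936 at 24 h. In every library from 48 to 168 h Gata4 exceeded Gata6, by a ratio of 1.40 to 1.61 at 48 h and 1.55 to 1.76 at 72 h. The ratio was lower again at 168 h, 1.15 to 1.27, and was 0.956 and 1.02 in the XEN libraries. These ratios are descriptions, without a test, and the Gata6 term includes the transgene in every library but those of XEN cells.

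Summed over the 6 GATA genes, the pool grew from 4.48 to 7.23 TPM at 0 h to between 201.8 and 215 TPM at 16 h and between 699 and 796.7 TPM at 168 h; the XEN libraries held 691.4 and 692.9 TPM. Gata2 made up 48.8% to 73.9% of this pool at 0 h, and Gata1 another 9.68% to 22.7%. From 16 h on, Gata4 and Gata6 together filled nearly all of it: Gata2 held 2.25% to 2.88% at 16 h and 0.178% to 0.295% at 168 h. The level of Gata2 itself averaged 5.16 TPM (SD 0.612) at 16 h, and by 168 h the mean level was 1.93 TPM (SD 0.484).

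**Figure D2:**
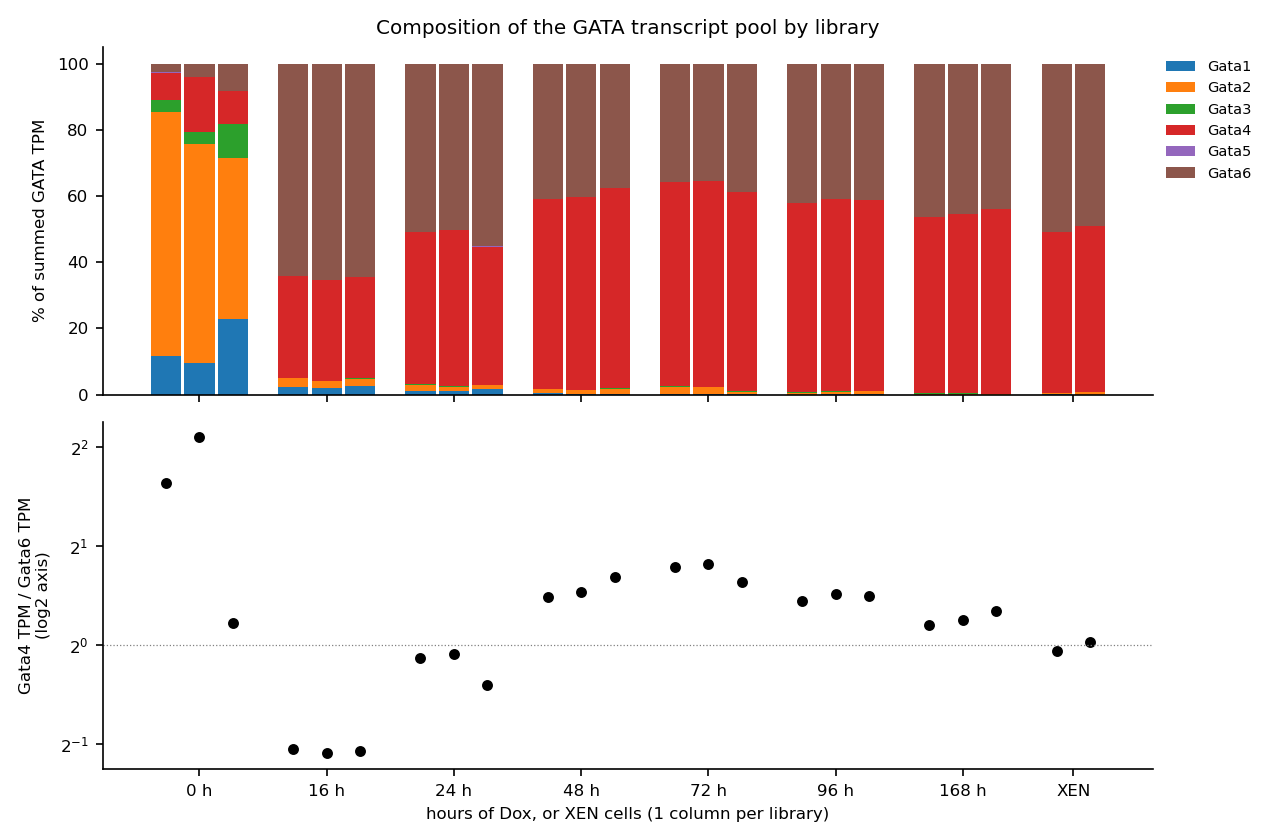
Top: share of each GATA gene in the summed GATA TPM of a library, in percent. Bottom: Gata4 TPM over Gata6 TPM in the same libraries, on a log2 axis with a dotted line at 1. Gata2 filled most of the pool at 0 h in 2 of 3 libraries, and the ratio lay above 1 at 0 h (1.16 to 4.27), below 1 at 16 and 24 h and above 1 from 48 to 168 h.

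Zfpm1 (chromosome 8, 122282141 to 122337251, plus strand), which encodes FOG1, was at 3.62, 2.71 and 2.65 TPM at 0 h and at 34.2, 35.1 and 33.6 TPM at 16 h. The groups did not overlap, the ratio of the means was 11.5, and the log2 difference 3.15 ± 0.15 (SE; limma adjusted p = 1.12e-11). Its later means were 30.4, 25.6, 25.4, 35.6 and 33.5 TPM at 24, 48, 72, 96 and 168 h. Replicate 3 was the lowest library at both 24 and 48 h, with 23.8 and 19.2 TPM against 27.9 to 33.8 TPM in the other two. The step from 72 to 96 h was 0.47 ± 0.15 on the log2 scale (SE; limma adjusted p = 0.0345), below the fold limit, and every 96 h library lay above every 72 h library. As GATA transcripts accumulated, the Zfpm1 level went from 47.9% to 59.2% of the GATA sum at 0 h to 15.6% to 17.2% at 16 h and 3.82% to 4.84% at 168 h. The gene model Gm20388 overlaps Zfpm1 on the same strand, so reads shared by both could be assigned to either.

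Zfpm2, which encodes FOG2, remained near the floor of the table. Its group means ran from 0.0542 TPM at 168 h to 0.254 TPM at 16 h, with no library above 0.314 TPM. Of the 2 FOG genes, Zfpm1 was therefore the one with an appreciable transcript level in every group.

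Gata1 (chromosome X, 7959260 to 7978071, minus strand), the erythroid and megakaryocyte factor, rose early and was near its starting level again by 48 h. It was at 0.833, 0.548 and 1.02 TPM at 0 h and at 4.33, 3.8 and 5.31 TPM at 16 h, without overlap, a log2 difference of 1.61 ± 0.18 (SE; limma adjusted p = 3.75e-06). At 24 h it stood at 3.05, 2.81 and 3.72 TPM, still called against 0 h at 1.22 ± 0.18 (SE; limma adjusted p = 4.08e-05). At 48 h its libraries, 1.46, 1.15 and 1.01 TPM, were close to those at 0 h (0.30, 95% interval from -0.08 to 0.68). The step from 24 to 48 h was -0.93 ± 0.18 (SE; limma adjusted p = 0.000555), just short of the fold limit. Levels then ran down to 0.0304 to 0.386 TPM at 96 h and to 0, 0.0406 and 0.0304 TPM at 168 h. Against 0 h the 168 h difference was -0.81 ± 0.18 (SE; limma adjusted p = 0.000534), not called on this scale, and -2.84 and called with a pseudocount of 0.1.

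Few blood genes passed the filter beside Gata1. Of 7 erythroid and blood markers 3 passed the filter, and Runx1, which encodes a DNA-binding partner of GATA factors in blood, was the 1 gene called at 16 h, going from 0.694 to 22.3 TPM (3.83 ± 0.18, SE; limma adjusted p = 1.59e-11). Spi1, a myeloid regulator, was under 1 TPM in every library of all 8 groups.

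Gata2 (chromosome 6, 88193891 to 88207032, plus strand), known from blood stem cells and trophoblast, showed its highest mean at 72 h. It was at 5.34, 3.74 and 2.18 TPM at 0 h, and at 11.7, 11.4 and 4.27 TPM at 72 h. The third 72 h library lay within the range of the 0 h libraries, so the groups overlapped. The log2 difference was 1.04 ± 0.31 (SE; limma adjusted p = 0.00659), only just past the fold limit. It fell below the limit without 72 h replicate 1 (0.82) or replicate 2 (0.84), without 0 h replicate 3 (0.78) and after median-of-ratios rescaling (0.97), and without 72 h replicate 3 it was 1.45. With the 2 compared groups alone in the fit its adjusted p was 0.0644. At 168 h Gata2 was at 2.35, 2.03 and 1.4 TPM, -0.66 against 0 h with a 95% interval from -1.31 to -0.01 (limma adjusted p = 0.0635).

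Trophoblast markers were read beside Gata2. The 8 listed genes summed to 35.8 to 49.2 TPM at 0 h, to 50.6 to 53.8 TPM at 48 h and to 8.96 to 12.7 TPM at 168 h. At 72 h the sum was 58.2, 54.4 and 42.1 TPM in replicates 1, 2 and 3. Elf5 and Gcm1 were under 1 TPM in every library from 0 to 168 h. Tfap2c alone made up most of the sum in untreated ES cells, with 30.4 to 42.4 TPM at 0 h. Its level was 9.63 to 18.9 TPM at 72 h and 1.46 to 2.87 TPM at 168 h. Among the 72 h libraries, Gata2 and the trophoblast sum were both lowest in replicate 3, in which the feeder marker sum was highest, 158.2 TPM against 63.5 and 73.4 TPM. The part of these cells in the Gata2 level was not tested. Of the 6 trophoblast markers that passed the filter, 4 were called higher at 48 h, where 16.4% of all genes were called: Ascl2, Eomes, Hand1 and Krt7. Tfap2c had the opposite sign at 48 h, -0.99 ± 0.22 (SE; limma adjusted p = 0.000899), just short of the fold limit. At 168 h, where 39.1% of all genes were called, Tfap2c and Ascl2 were called lower. The log2 differences were -3.74 ± 0.22 for Tfap2c (SE; limma adjusted p = 1.13e-11) and -1.44 ± 0.20 for Ascl2 (SE; limma adjusted p = 2.46e-06). Hand1 was not called (1.00 ± 0.25; limma adjusted p = 0.00121).

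Gata3, another trophoblast and T cell factor, stayed low but was higher at the later times. Its libraries lay between 0.203 and 0.467 TPM at 0 h, between 0.71 and 1.22 TPM at 72 h and between 0.547 and 1.5 TPM at 168 h, without overlap with 0 h in either case. With no filter on low values its log2 difference was 0.58 at 72 h and 0.56 at 168 h (SE 0.15 for each), with adjusted p of 0.00584 and 0.00556 in limma, both below the fold limit. Gata5, an endoderm and heart factor, did not exceed 0.0609 TPM in any library and was listed at 0 in both XEN libraries.

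**Figure D3:**
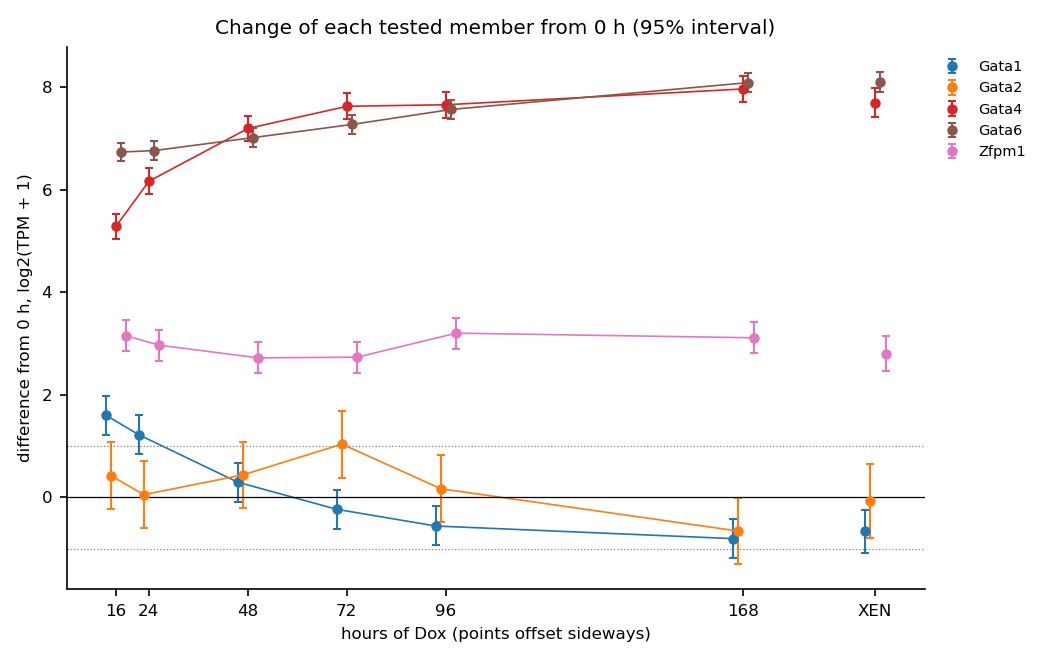
Difference from 0 h of the 5 tested members in log2(TPM + 1), with the 95% interval of the limma fit; dotted lines mark the fold limit of 1 in each direction. Gata6 and Gata4 lay between 5.29 and 8.10, Zfpm1 between 2.72 and 3.21 at all times and in XEN cells, Gata1 was above the limit at 16 and 24 h, and the interval of Gata2 at 72 h reached from 0.39 to 1.69.

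To see how closely the induced cells approached an extra-embryonic endoderm line, XEN cells were compared with 0 h and 168 h. Against 0 h, Gata6 (8.10 ± 0.10, SE), Gata4 (7.70 ± 0.13) and Zfpm1 (2.80 ± 0.16) were called higher in XEN cells, with limma adjusted p of 1.23e-21, 2.97e-19 and 1.06e-11, and 37.6% of all genes were called. Against 168 h, none of the 5 tested members was called, where 13.9% of genes were. None had an unadjusted limma p under 0.05, with 0.057 for Gata4 and 0.0711 for Zfpm1. The share of all genes at that limit is not given here. At a limma adjusted p under 0.05 with no fold limit, 7525 of 15057 genes passed and no member did. Gata6 was at 351.8 and 340.7 TPM in XEN cells and between 317.3 and 369.6 TPM at 168 h, a difference of 0.01 with a 95% interval from -0.19 to 0.21. The 168 h level includes the transgene and the XEN level does not, so endogenous Gata6 was not compared. Gata4 was at 336.3 and 346.7 TPM in XEN cells, below the 378 to 438.2 TPM of the 168 h libraries in both (-0.27, interval from -0.55 to 0.01). Zfpm1, at 27.7 and 25.7 TPM, also lay below all 168 h libraries (-0.31, interval from -0.65 to 0.03). Median-of-ratios rescaling called no member either; it took the median of all genes here from -0.14 to -0.02, and 46.5% of the calls were then higher in XEN cells in place of 34%. Gata2 was at 2.33 and 4.69 TPM and Gata1 at 0.273 and 0 TPM in XEN cells.

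Apart from the step from 24 to 48 h, consecutive times gave no calls among the members. No member was called from 16 to 24 h, from 48 to 72 h, from 72 to 96 h or from 96 to 168 h, where 0.352%, 3.33%, 1.71% and 7.67% of all genes were called. At an unadjusted limma p under 0.05, 2 members were found from 16 to 24 h and 3 in each of the other steps. The share of all genes at that limit is not given here. At a limma adjusted p under 0.05 with no fold limit, 1, 3, 2 and 3 members passed in these steps, beside 390, 4450, 2477 and 6432 of 15057 genes. From 96 to 168 h, median-of-ratios rescaling brought the share of higher genes among calls from 68.1% to 53.7%.

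The genes with patterns most like those of the members were found by Pearson's r of log2(TPM + 1) over the 23 libraries, among the 15057 genes tested; the libraries share the time course, so r describes a likeness and carries no test. For Gata4 they were Sox17 (0.993), Flrt3 (0.992), Rassf8 (0.986), Serpinh1 (0.986) and Pdgfra (0.986). For Gata6 they were Pdgfra (0.993), Sox17 (0.989), Gata4 (0.975), Bag3 (0.965) and Zfpm1 (0.961), and for Zfpm1 they were Gata6 (0.961), Pdgfra (0.947), Prkab1 (0.930), Bag3 (0.928) and Sox17 (0.928). SOX17 and the receptor PDGFRA are PrE markers. Gata1 had a different set, Tbx3os2 (0.965), Atp4a (0.959), Trim14 (0.952), Shkbp1 (0.950) and Etv2 (0.945), the last encoding a regulator of blood and endothelial progenitors. No gene followed Gata2 as closely: its nearest were Ctdspl2 (0.820), Grtp1 (0.809), Irx4 (0.786), Pgam1 (0.782) and Zfp185 (0.774).

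Extra-embryonic endoderm genes, a list holding laminins, collagens, apolipoproteins and endocytic receptors beside PrE transcription factors, were called beside Gata4 and Gata6. All 10 genes of the shorter PrE and XEN list were higher at 16, 48 and 168 h and in XEN cells. Of 22 listed and tested genes, 15 were called higher at 16 h, 18 at 48 h and all 22 at 168 h, with medians of 2.06, 4.77 and 6.17 on the log2 scale against 0.02, 0.00 and 0.09 over all tested genes. In XEN cells 18 were higher and 1 lower than at 0 h, where 37.6% of all genes were called. The 3 with the largest change at 168 h were the basement membrane collagens Col4a1 (9.30 ± 0.14, SE) and Col4a2 (9.19 ± 0.17) and the endocytic receptor gene Cubn (8.14 ± 0.27), with limma adjusted p of 4.85e-20, 1.44e-18 and 2.61e-15. All 8 ES cell markers were lower at 168 h (median -5.57), led by Tdgf1 at -7.43 ± 0.31 (SE; limma adjusted p = 7.29e-14).

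Corepressor genes that work with FOG proteins were mostly not called. The list holds the 2 CtBP genes and 13 genes of NuRD, the nucleosome remodelling and deacetylase complex. None of its 15 genes was called at 16 h, where 2.77% of all genes were. At 168 h 3 were higher and 1 lower, where 39.1% of all genes were called, with a median of 0.31 over the list. Mbd2, a methyl-CpG binding NuRD subunit, went from 12.2 to 58.6 TPM (2.18 ± 0.10, SE; limma adjusted p = 3.81e-13). Rbbp7, a histone chaperone subunit, went from 256.9 to 765.4 TPM (1.57 ± 0.18, SE; limma adjusted p = 1.67e-07). Ctbp2, which encodes the corepressor bound by a motif in FOG proteins, fell from 224.6 to 56.8 TPM (-1.97 ± 0.09, SE; limma adjusted p = 2.91e-13). In XEN cells 3 of the 15 were higher and 3 lower than at 0 h, where 37.6% of all genes were called.

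DNA-binding and coactivator partners of GATA factors included 2 early calls. Of 20 listed genes 14 passed the filter. Of these, 2 were higher at 16 h (2.77% of all genes were called) and 4 higher and 1 lower at 168 h (39.1% of all genes). In XEN cells 5 were higher and 2 lower (37.6% of all genes). The 2 at 16 h were Runx1 and Lmo2, the latter a LIM-domain bridging protein of blood GATA complexes, named after its values were seen. Lmo2 went from 0.277 to 6.3 TPM at 16 h (2.52 ± 0.19, SE; limma adjusted p = 1.08e-08), was at 1.75 TPM at 48 h and at 0.298 TPM at 168 h. Lmo4, a related LIM-domain gene, moved at the other end of the course, from 13.7 TPM at 0 h to 11.05 TPM at 16 h and 73.6 TPM at 168 h (2.37 ± 0.15, SE; limma adjusted p = 3.35e-11). Runx1 reached 56.1 TPM at 48 h and was back at 22.3 TPM at 168 h, and Mef2c, a cardiac and muscle partner, reached 2.12 TPM at 168 h (1.44 ± 0.22, SE; limma adjusted p = 9.95e-06).

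**Figure D4:**
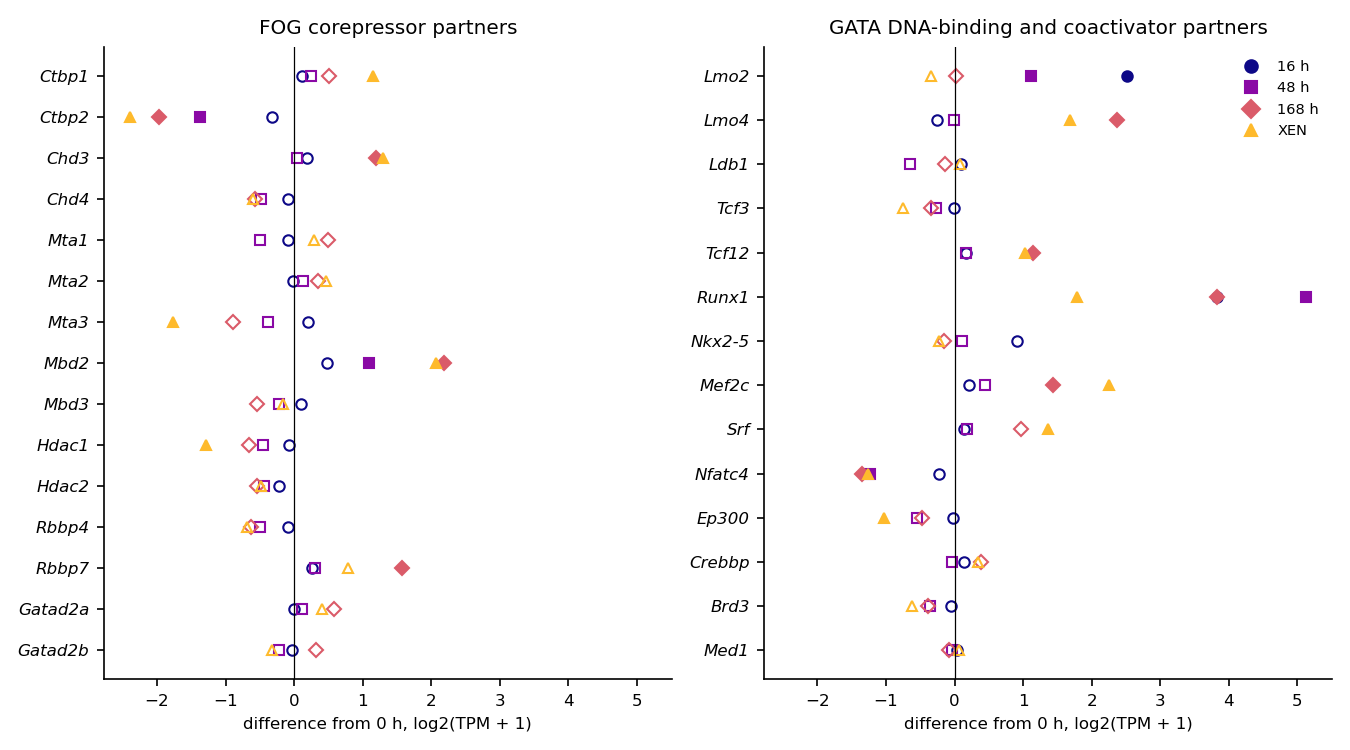
Difference from 0 h in log2(TPM + 1) of the tested FOG corepressor partners (left) and GATA DNA-binding and coactivator partners (right) at 16, 48 and 168 h and in XEN cells. Filled symbols were called and open symbols were not. Runx1 and Lmo2 are the filled circles at 16 h, and no corepressor gene is filled at that time.

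Other genes with GATA-type zinc fingers include NuRD subunits shared with the corepressor list. None of 9 was called at 16 h, where 2.77% of all genes were called. At 168 h, with 39.1% of all genes called, 1 was higher (Rere, 1.27 ± 0.12, SE; limma adjusted p = 1.01e-08) and 1 lower (Trps1, -1.66 ± 0.10; limma adjusted p = 1.99e-11). In XEN cells none was called higher and 3 were called lower than at 0 h, where 37.6% of all genes were called. Mta3 at 168 h was at -0.90 ± 0.08 (SE; limma adjusted p = 3.64e-09), inside the fold limit. Of 6 cardiac markers 3 were tested, none was called at 16 h and Myh6 was called lower at 168 h, from 3.12 to 0.921 TPM. Of 4 definitive endoderm markers 2 were tested and neither was called at 168 h; Cer1 was under 1 TPM in every library. Of 9 feeder fibroblast markers none was called at 16 h and 7 were called higher at 168 h, where 39.1% of all genes were called. Col3a1 had the largest difference (3.01 ± 0.49, SE; limma adjusted p = 1.72e-05). The feeder sum had a median of 50.3 TPM at 0 h and 84.7 TPM at 16 h, with a list median of 0.47 at 16 h, and Twist1 was at 0.94 ± 0.17 (SE; limma adjusted p = 0.000694), below the fold limit. The part of feeder RNA in the members' values was not tested.

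The knockdown series asked whether OCT4 is needed while GATA6 acts. Of the 5 members in that table, 1 was called between siOct4 and siCTL, Gata2, where 2.67% of 6264 tested genes were called. The median difference over all tested genes was -0.12, and 0.01 after median-of-ratios rescaling, which brought the share of higher genes among calls from 35.3% to 48.5%. Same-numbered libraries deviated together, so the library number was also fitted as a block. Libraries 1 and 2 and libraries 5 and 6 were also alike within an arm (r of 0.978 to 0.990), as were siOct4 3 and 4 (0.985). Other numbers gave at most 0.969, and siCTL 3 and 4 were not alike (0.938). Whether the alike libraries share a source was not tested. With consecutive libraries averaged, no member was called, at limma adjusted p of 0.404 for Gata2, 0.45 for Gata4 and 0.662 for Gata1. That fit, chosen after seeing the data, called 0 of all 6264 tested genes, so its lack of calls is not particular to the members. In the paired fit 3 members were called: Gata2 and Gata1, higher in siOct4, and Gata4, lower, where 8.57% of all genes were called.

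Gata2 was at 0.813 to 3.87 TPM in siCTL (median 1.76) and at 3.62 to 19.9 TPM in siOct4 libraries (median 5.4). The highest siCTL library, number 4, lay above the lowest siOct4 library, number 2, so the groups overlapped, and siOct4 was higher in 6 of 6 same-numbered pairs, by 0.38 to 2.91 on the log2 scale. The mean log2 difference was 1.59 ± 0.40 (SE), at a limma adjusted p of 0.0476, or 0.00651 in the paired fit, with an exact permutation p of 0.00433 and a paired exact sign-flip p of 0.0312, the smallest that 6 pairs can give. Libraries 5 and 6 of siOct4 stood apart at 19.9 and 19 TPM against at most 5.45 TPM in the other 4. Without numbers 5 and 6 the difference was 1.07 and its adjusted p 0.212. Leaving out any single library gave differences from 1.34 to 1.77, with the call lost in 10 of 12 cases.

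Gata1 was at 0 to 1.81 TPM in siCTL (median 0.399) and at 0.661 to 4.82 TPM in siOct4 libraries (median 1.72), higher in 6 of 6 pairs although the groups overlapped. Its log2 difference was 0.93 ± 0.35 (SE), at a limma adjusted p of 0.217, or 0.00724 in the paired fit, and an exact permutation p of 0.0411. Its highest libraries in both groups were again numbers 5 and 6.

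The marker sums moved with these libraries. The 6 trophoblast markers in the table summed to 145.8 and 141.8 TPM in siOct4 5 and 6, against 27.5 to 57.5 TPM in the other siOct4 and 15.7 to 50.8 TPM in the siCTL libraries. The 6 feeder markers summed to 219.1 and 198 TPM in siOct4 5 and 6 but to 41.7 and 49.9 TPM in siCTL 5 and 6. For numbers 1 and 2 siCTL held more (195 and 181.4 against 66.9 and 62.5 TPM), as for number 4 (217.1 against 32.95 TPM). Number 3 held 31.1 TPM in siCTL and 40.6 TPM in siOct4. Cdx2, a defining trophoblast factor, ranged from 0.699 to 1.38 TPM in siCTL and from 0.753 to 4.15 TPM in siOct4 libraries. Of the 6 trophoblast markers Ascl2 alone was called, higher at 1.20 ± 0.28 (SE; limma adjusted p = 0.0343), with Krt7 at 1.62 ± 0.48 (adjusted p = 0.102), Hand1 at 1.54 ± 0.52 (adjusted p = 0.164) and Tfap2c at 1.11 ± 0.49 (adjusted p = 0.323). Eomes, a trophoblast stem cell factor, had the opposite sign, with 6.19 TPM in siOct4 and 9.44 TPM in siCTL libraries (-0.54, 95% interval from -1.10 to 0.03; limma adjusted p = 0.393). The part of these markers in the Gata1 and Gata2 differences was not tested. Without numbers 5 and 6 Gata1 differed by 0.88, close to its value over all libraries.

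Gata4 had a lower mean level in siOct4 but was not called in the unpaired limma fit. It was at 183.9 to 399.6 TPM in siCTL (median 225.8) and at 123.2 to 199 TPM in siOct4 libraries (median 164.2), lower in 6 of 6 pairs by 0.38 to 1.00 on the log2 scale, with overlap between groups. The mean log2 difference was -0.60 ± 0.19 (SE), at a limma adjusted p of 0.136, or 0.00592 in the paired fit, with an exact permutation p of 0.013. After median-of-ratios rescaling the Gata4 difference was -0.45 (limma adjusted p = 0.18), inside the fold limit. Gata6, with transgene and endogenous transcripts counted together, was at 92.6 to 198.5 TPM in siCTL and 51.2 to 130.2 TPM in siOct4 libraries. It was also lower in 6 of 6 pairs. Its difference was -0.50 ± 0.22 (SE), at a limma adjusted p of 0.326, or 0.0503 in the paired fit, with an exact permutation p of 0.0541 and a paired exact sign-flip p of 0.0312. In the limma fit without siCTL 4, the library with the highest Gata6 level, the difference was -0.35 (adjusted p = 0.525). After median-of-ratios rescaling the Gata6 difference was also -0.35 (limma adjusted p = 0.503). The study measured endogenous Gata6 alone, by a region absent from the transgene, and reported it lower upon Oct4 knockdown.

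The Gata4 to Gata6 relation itself, with the transgene counted in the Gata6 term, did not differ detectably. On the log2 scale Gata4 exceeded Gata6 by 1.03 ± 0.17 under siCTL and 0.93 ± 0.26 under siOct4 (SD, n = 6 per arm), a change of -0.10 with pairs from -0.40 to 0.40 (exact permutation p = 0.444). Zfpm1, with -0.10 and a 95% interval from -0.72 to 0.52 (exact permutation p = 0.764), was lower in 4 pairs and higher in 2, and its sign turned to 0.04 after median-of-ratios rescaling and to 0.08 without pair 4, and in the limma fit it turned without siCTL 4 (0.14) or siOct4 2 (0.05). These exact tests form a family of 6, one for each of the 5 genes and one for the relation.

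**Figure D5:**
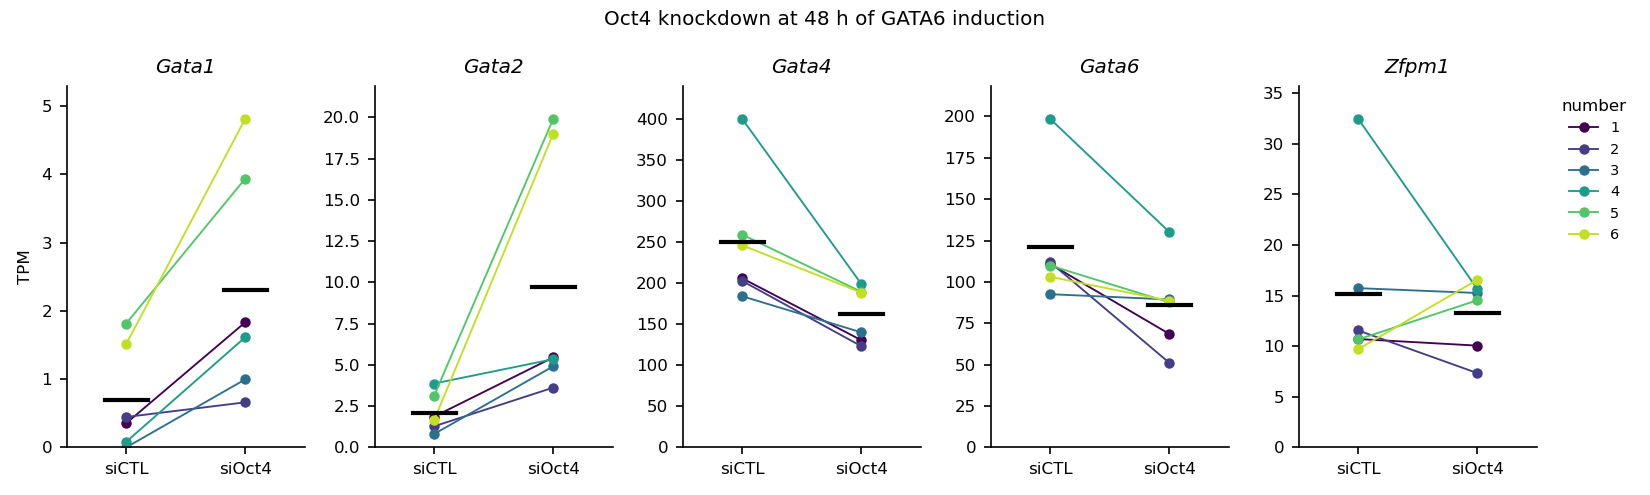
TPM of the 5 members in the knockdown table at 48 h of Dox, siCTL at the left and siOct4 at the right of each panel; lines join libraries of the same number and black bars are means (n = 6). All 6 lines go up for Gata1 and Gata2 and down for Gata4 and Gata6, with numbers 5 and 6 far above the others for Gata2 in siOct4, while the lines of Zfpm1 cross.

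Among the lists in the knockdown table, Runx1 was the only called partner gene of GATA factors, lower in siOct4 at 19.2 against 45 TPM (-1.15 ± 0.27, SE; limma adjusted p = 0.0335). None of the 4 corepressor genes in the table was called, with Rbbp7 nearest at 0.56 ± 0.16 (SE; adjusted p = 0.0907), and neither was either of the 2 other GATA-type zinc finger genes. Of 18 extra-embryonic endoderm genes 2 were called, where 2.67% of all tested genes were called. Both were lower, Cubn at -2.55 ± 0.46 (SE; limma adjusted p = 0.00641) and its partner gene Amn at -1.43 ± 0.30 (SE; limma adjusted p = 0.0197). The median over the 18 was -0.32.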

How the data were processed

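From stranded paired-end poly(A) RNA-seq, the authors used STAR (build mm10) and RSEM, omitted outliers in principal component analysis, and deposited TPM values for each library; versions are not given in the sources used here. The knockdown table is limited to genes in the authors' GATA6 response classes, and each library there sums to between 274527 and 355895 TPM. It also holds those classes, the authors' siOct4 calls and mean columns, which were not used. Symbols listed more than once were represented by their highest-mean entry. Depth is unknown.

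Groups and replicate numbers came from the sample titles. The deposited TPM were taken to log2(TPM + 1) and fitted with limma 3.58.1 in R 4.3.3 (eBayes with trend and robust options), over all 23 induction libraries in 8 groups, or over the 12 knockdown libraries, with Benjamini-Hochberg adjustment over all genes whose mean reached 1 TPM in some group. The fit was tested on simulated data. Single knockdown values were compared by two-sided exact permutation tests over 924 splits, whose smallest p is 0.00216, and by exact sign flips of the 6 paired differences (64 patterns). The study calls its replicates independent without naming separate cultures, and p-values measure only the spread between these libraries.

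Pairing was checked by correlating deviations from group means: same-numbered knockdown libraries gave 0.24 to 0.71 (mean 0.33, other pairs -0.06), and the study describes 6 independent knockdowns, so numbers were taken as pairs. In the induction series the mean was 0.04, against -0.02.

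The members and gene lists were chosen with earlier results of these data known. Named were all 8 members, the 5 genes with the highest r to each tested member, and from each list the 3 genes with the largest absolute log2 change at 168 h and under siOct4, of which the text gives those that bear on the members. Gene positions are from GENCODE M21, and upstream sequences from RefSeq, with a window for 5 of the 8 members. One listed marker is not reported here.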

Additional observations from a re-analysis of the deposited data

Results flagged for a closer look

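In the siCTL group, the log2(TPM + 1) value of Gata6 was 7.64 in library 4, while the other 5 libraries lay between 6.55 and 6.82. Its gap to the nearest library took 0.752 of the whole range of the group, above the 0.625 limit of Dixon's test for 6 libraries. Of 12 sets examined (5 genes and the Gata4 to Gata6 relation, in each siRNA group) this was the 1 set past the limit, and chance flags about 1 in 20 sets. The same library was also the highest of its group for Gata4 (399.6 TPM), Gata2 (3.87 TPM) and Zfpm1 (32.5 TPM). Its feeder marker sum was the highest of the group too (217.1 TPM), and the part of feeder RNA in these values was not tested. Without pair 4 the Gata6 difference between siOct4 and siCTL was -0.48 (exact permutation p = 0.00794), against -0.50 with it (exact permutation p = 0.0541). Without siCTL 4 alone it was -0.35 (limma adjusted p = 0.525).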

How the results depend on the processing

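Against 0 h and XEN cells, the number of members called stayed within 1.5 times under each alternative. The induction calls were the same with the replicate number as a block, where the labels give same-numbered libraries only a number in common. At each time replicates 1 and 2 were the most alike pair, as at 72 h (r = 0.9955, against 0.9869 and 0.9879 with replicate 3). Between consecutive times the counts rested on the fold minimum and on single libraries. Without a fold minimum, 1 member was called from 16 to 24 h, 3 from 24 to 48 h, 3 from 48 to 72 h, 2 from 72 to 96 h and 3 from 96 to 168 h. Over all 15057 genes tested, 390, 5645, 4450, 2477 and 6432 were called in these 5 steps. With a pseudocount of 0.1, 1 member was called from 96 to 168 h (Gata2), where 2038 of all 15057 genes were called. Leaving out single libraries gave 0 to 1, 0 to 2, 0 to 1, 0 to 1 and 0 to 1 members in these 5 steps, where leaving out 24 h replicate 3 moved the Gata4 calls, 48 h replicate 1 that of Gata1, and 72 h replicate 3 or 96 h replicate 1 those of Gata2. For siOct4 against siCTL, 3 members were called with the replicate block, 0 to 1 when single libraries were left out, 0 at a mean of at least 5 TPM and 0 at an adjusted p under 0.01. Chosen after seeing the data, averaging consecutive libraries gave 0, as did leaving out libraries 1 and 2 (0), 3 and 4 (0) or 5 and 6 (0). Over all genes, these leave-out fits called 32 of 6247, 172 of 6262 and 55 of 6194 tested. At a mean of at least 5 TPM 140 of 4510 genes were called, and at an adjusted p under 0.01 61 of 6264. The Gata6 difference of -0.50 had an exact p of 0.0312 in pairs, and ranged from -0.59 to -0.38 over left-out pairs. The Zfpm1 difference turned to 0.043 with median-of-ratios rescaling, and ranged from -0.261 to 0.082 over left-out pairs. All genes called numbered 167, against 537 with the block, 297 after rescaling and 0 with consecutive libraries averaged; the causes were not tested. Depth is unknown, so levels near 1 step of the table cannot be ranked.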
